A study of Mus musculus with 16 samples.

Results

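Rpl3 and Rpl3l are a pair of paralogous genes, and each encodes a version of the same protein of the large ribosomal subunit. They were taken by gene symbol from a table of RNA sequencing counts, in which they are 2 of 11710 genes. The samples are mouse rotator cuff muscle, 16 in all, in 4 groups of 4. C57BL/6J mice (BL6 below) and MRL/MpJ mice (MRL below) were either left unoperated or underwent tenectomy (excision of the tendon) and denervation of the muscle. The series text names the infraspinatus and the sample labels the supraspinatus, so the muscle is called by its muscle group, and the time after surgery is not given in the sources used here. No transgene, drug or other allele is named for any group. The labels do not say that replicates came from separate animals, so the p-values below measure only the spread between these samples, which may be technical.

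Rpl3 is made in nearly all cells, and its protein sits close to the site of the ribosome at which peptide bonds form. Rpl3l is made almost only in skeletal muscle and heart, where its protein takes the place of the Rpl3 protein in mature fibres. In rodent muscle that grows or is rebuilt, a fall of Rpl3l together with a rise of Rpl3 is a known change, and loss of Rpl3l in the heart is known to raise Rpl3.

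In BL6 muscle Rpl3 rose 2.76-fold with surgery, from 4.10 ± 0.524 to 11.3 ± 3.17 CPM (counts per 1000000 counts of a library, mean ± SD, n = 4 each), while in MRL it went from 2.02 ± 0.580 to 2.57 ± 0.745 CPM and did not pass the test. Rpl3l did not pass the test in any comparison: its means were 682 ± 41.2 and 778 ± 197 CPM in unoperated and operated BL6 muscle and 567 ± 29.5 and 691 ± 126 CPM in MRL (SD, n = 4 each). Rpl3 was also lower in MRL than in BL6, by 2.03-fold in unoperated and 4.39-fold in operated muscle. The ratio of Rpl3l to Rpl3 counts was lower after surgery in BL6, and higher in MRL than in BL6 in both surgical states. The Rpl3 values are of an unusual kind, because most of the Rpl3 transcript has near-identical copies elsewhere in the genome, and the sequences come first for that reason.

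Rpl3 (ENSMUSG00000060036) lies at chr15:80077791-80091868 on the minus strand of GRCm38 in the GENCODE M21 annotation. Rpl3l (ENSMUSG00000002500) lies at chr17:24727820-24736143 on the plus strand. The longest coding transcript of each has 10 exons, with 1351 bases in Rpl3 and 1375 in Rpl3l. Over 1209 aligned coding bases the transcripts were 74.4% identical (899 bases), and their longest identical run was 22 bases, so longer exact matches tell the paralogs apart. The first 60 coding bases of both are shown with those of the 3 pseudogenes closest to Rpl3. Capitals mark the bases that differ from Rpl3.
Rpl3: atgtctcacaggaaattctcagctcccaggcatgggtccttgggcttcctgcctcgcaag
Rpl3-ps1: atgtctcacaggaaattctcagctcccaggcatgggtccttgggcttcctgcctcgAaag
Gm5879: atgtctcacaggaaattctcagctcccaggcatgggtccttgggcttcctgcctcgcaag
Rpl3-ps2: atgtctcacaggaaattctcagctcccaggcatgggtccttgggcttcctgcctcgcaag
Rpl3l: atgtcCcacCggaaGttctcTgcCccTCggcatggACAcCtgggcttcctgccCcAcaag

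Rpl3l differed from Rpl3 at 13 of these 60 bases, Rpl3-ps1 at 1, and Gm5879 and Rpl3-ps2 at 0. Rpl3-ps1 on chromosome X aligned to the Rpl3 transcript at 99.8% identity, Gm5879 on chromosome 6 at 99.01% and Rpl3-ps2 on chromosome X at 98.8%. In all, 30 annotated pseudogenes aligned to Rpl3 over at least 1000 bases, 21 of them at 90% identity or more and 7 at 95% or more, and 0 of the 30 are in the count table. Among pseudogenes aligned to Rpl3l over at least 1000 bases, the closest was 74.35% identical.

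Of the 50-base windows of the Rpl3 transcript, 14.4% (188 windows) occur in no other annotated gene, and inside the coding sequence this holds for 50 of 1163 windows. With windows of 100 bases the share was 20.6%. For Rpl3l it was 100% (1326 windows of 50 bases). Rpl3 had the third lowest share among 37 large-subunit genes, whose median was 52.1%. The read length and the treatment of reads with several matches are not given in the sources used here, so the Rpl3 counts are uncertain as a level, and how far copies take reads from Rpl3 was not tested. The Rpl3 gene also overlaps Syngr1 on the opposite strand by 535 bases, but their exons share 0 bases.

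Rpl3 was measured on few counts. The counts of replicates 1 to 4 were 134, 203, 144 and 137 in unoperated BL6 muscle and 284, 242, 242 and 552 in operated BL6 muscle. They were 93, 77, 54 and 56 in unoperated MRL muscle and 48, 62, 102 and 97 in operated MRL muscle. The lowest Rpl3 count, 48, is still well above the 3 counts that serve as a floor. Rpl3l, the muscle paralog, had between 16228 and 28539 counts in every sample.

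After scaling to library size by trimmed mean of M values (TMM), Rpl3 in unoperated BL6 muscle was at 4.03, 4.86, 3.81 and 3.71 CPM in replicates 1 to 4, and in operated BL6 muscle at 11.5, 9.37, 8.66 and 15.7 CPM. Every operated BL6 sample was above every unoperated one, and operated replicate 4 stood highest. In unoperated MRL muscle Rpl3 was at 2.84, 1.97, 1.74 and 1.52 CPM, and in operated MRL muscle at 1.95, 2.15, 3.62 and 2.55 CPM. The MRL groups overlapped, with 1 operated sample, replicate 3, above all unoperated ones. Every MRL sample was below every BL6 sample of the same surgical state. The share of all genes with groups set apart in this way was not computed.

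Rpl3l in unoperated BL6 muscle was at 646.5, 683.1, 739.2 and 658.3 CPM, and in operated BL6 muscle at 855.6, 957.1, 800.1 and 499.9 CPM. The operated group surrounded the unoperated one: 3 samples were above all unoperated samples and 1, replicate 4, was below all of them. In unoperated MRL muscle Rpl3l was at 583.3, 574.5, 523.4 and 586.8 CPM, and in operated MRL muscle at 788.6, 773.5, 688.7 and 514.7 CPM. The same layout was seen there, with 3 operated samples above and replicate 4 below all unoperated samples.

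**Figure D1:**
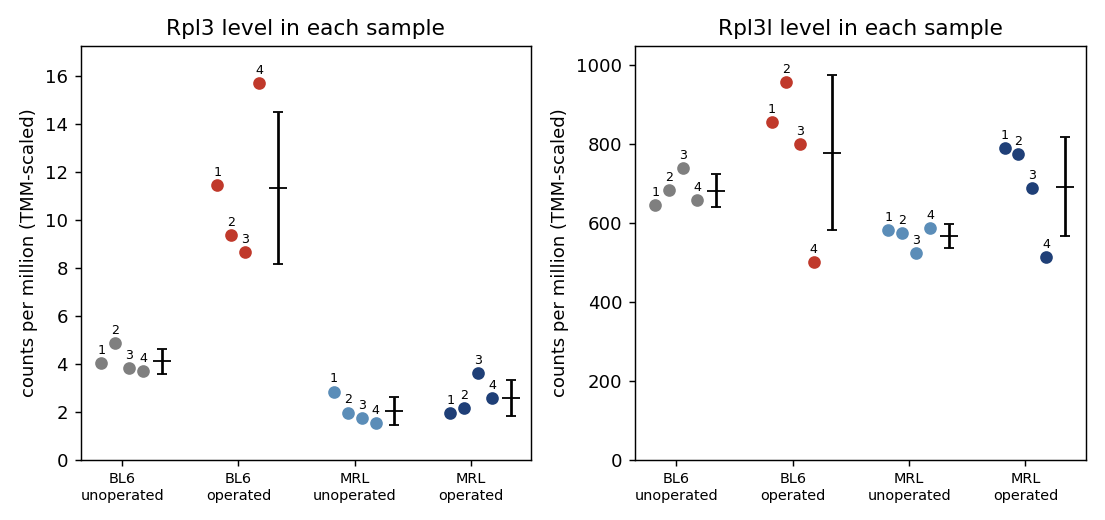
TMM-scaled CPM of Rpl3 (left) and Rpl3l (right) in each sample by group. Points are samples with their replicate numbers, and the bars beside them give mean and SD (n = 4). Rpl3 in operated BL6 muscle lies between 8.66 and 15.7 CPM, above all other samples, while Rpl3l spans 499.9 to 957.1 CPM there and overlaps the unoperated samples.

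Ordered by its mean, Rpl3 was highest in operated BL6 muscle, then in unoperated BL6, operated MRL and unoperated MRL muscle. The first pair of neighbours in this order differed by the test below and the last did not. The middle pair, unoperated BL6 and operated MRL, differs in strain and surgery at once and was not tested. Rpl3l was highest in operated BL6 muscle, then in operated MRL, unoperated BL6 and unoperated MRL muscle. Of its neighbours in that order, the pair of operated groups and the pair of unoperated groups were tested, and neither passed in the fit over all samples. In TMM-scaled CPM the unoperated BL6 and unoperated MRL samples did not overlap.

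Per kilobase of annotated exon (3175 bases in Rpl3, 1643 in Rpl3l), the mean level of Rpl3 was 1.29 and 3.56 CPM in unoperated and operated BL6 muscle and 0.635 and 0.809 CPM in MRL. On the same per-kilobase scale Rpl3l had mean levels of 415, 474, 345 and 421 CPM in the same order. The muscle paralog was thus the far more abundant of the pair as counted. The per-length ratio of Rpl3l to Rpl3 averaged 325, 145, 572 and 558.5 in these groups. Dividing instead by the windows that occur in no other gene, a scale chosen after seeing the data, gave 23.85, 10.7, 41.99 and 40.98. The windows come from the longest coding transcripts (1351 bases in Rpl3, 1375 in Rpl3l) and not from all annotated exons. The scales thus differ in more than shared sequence. The size of the ratio depends on the length it is divided by, while its order over the groups is by construction the same.

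With surgery in BL6 muscle Rpl3 rose. Its log2 difference, operated minus unoperated, was 1.46 (SE 0.24, 95% interval 0.96 to 1.97, adjusted p = 0.000116, edgeR quasi-likelihood test with Benjamini-Hochberg adjustment over 11709 genes). Of all genes tested 67.9% were called in this comparison, 35.1% of all genes as higher and 32.8% as lower. A share of 91.7% of genes had a log2 difference below that of Rpl3. For Rpl3 the authors' deposited table gives a log2 fold change of 1.26 with a false discovery rate of 6.675e-05. Rpl3l had a log2 difference of 0.19 (SE 0.18, interval -0.18 to 0.57, adjusted p = 0.348, same edgeR test), so the interval allows a rise of up to 1.48-fold. Without operated replicate 4 the Rpl3l difference was 0.35 and was called (adjusted p = 0.0354, edgeR), and without operated replicate 2 it was 0.0757.

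In operated BL6 replicate 4, with the highest Rpl3 and the lowest Rpl3l of its group, markers of some other cell types also stood out. The summed level of 14 fibroblast markers was 10800 CPM there against 2302 to 3782 CPM in the other operated BL6 samples, that of 15 macrophage markers 958.6 CPM against 146.2 to 270.7 CPM, and that of 11 adipocyte markers 3595 CPM against 1841 to 2018 CPM. The endothelial and Schwann cell sums did not stand out, at 1356 CPM against 1187 to 1444 CPM and 538.0 CPM against 233.1 to 573.8 CPM. The summed level of 30 muscle fibre genes was 116900 CPM there and 182300 to 302200 CPM in the others. Unoperated MRL replicate 1, highest in Rpl3 there, had macrophage and fibroblast sums of 652.1 and 4459 CPM (others at most 153.8 and 2910 CPM). Its adipocyte sum was the lowest, 811.1 CPM. Operated MRL replicate 3, highest in Rpl3 there, had a fibroblast sum of 6314 CPM, and replicates 1, 2 and 4 had 3254, 3583 and 5943 CPM. In unoperated BL6 muscle replicate 2 was highest in Rpl3, but replicate 1 in the macrophage and fibroblast sums. The part of these cell types in the Rpl3 and Rpl3l values was not tested, and in such whole-muscle samples fewer cells of a type and less RNA per cell cannot be told apart.

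In MRL muscle the surgery difference of Rpl3 did not pass the test. It was 0.35 on the log2 scale (SE 0.25, interval -0.17 to 0.88, adjusted p = 0.251, edgeR), in a comparison with 45% of genes called, 22.3% as higher and 22.7% as lower. The authors' deposited table gives a log2 fold change of 0.56 for it with a false discovery rate of 0.0274, so that table calls it while none of 24 alternatives of the fit here did (adjusted p 0.0755 to 0.671). Without operated MRL replicate 3 the difference was 0.14, and without unoperated MRL replicate 1 it was 0.57. Rpl3l had a log2 difference of 0.29 (SE 0.18, interval -0.09 to 0.66, adjusted p = 0.192, edgeR), which allows a rise of up to 1.58-fold. Without operated MRL replicate 4, which stands apart in its mitochondrial share below, the Rpl3l difference was 0.40 (adjusted p = 0.0524, edgeR) and that of Rpl3 0.35. In the authors' deposited table Rpl3l has log2 fold changes of 0.25 in BL6 and 0.19 in MRL, with false discovery rates of 0.201 and 0.364.

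The difference between the strains in their response to surgery was tested directly. For Rpl3 it was -1.11 on the log2 scale, MRL minus BL6 (SE 0.34, interval -1.84 to -0.39). The unadjusted p was 0.00514, but the edgeR adjusted p over all genes was 0.179, so it was not called. Of all genes 0.248% (29) were called in this interaction, 0.154% as higher and 0.0939% as lower, and 1843 had an unadjusted p under 0.05. For Rpl3l it was 0.10 (SE 0.25, interval -0.44 to 0.63, adjusted p = 0.860, edgeR). In the authors' deposited table the log2 fold changes of Rpl3 with surgery lie closer together, at 1.26 in BL6 and 0.56 in MRL.

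Between strains, Rpl3 in unoperated muscle was lower in MRL by a log2 difference of -1.02 (SE 0.24, interval -1.54 to -0.51, adjusted p = 0.0123, edgeR), where 10.4% of genes were called, 5.36% as lower and 5.02% as higher. Leaving out unoperated MRL replicate 4 gave -0.91 with an adjusted p of 0.0540 (edgeR), which is no longer called. Scaling by total counts alone also ended the call, at -0.88 with an adjusted p of 0.0940 (edgeR). The authors' deposited table gives -1.23 with a false discovery rate of 0.000501.

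In operated muscle the strain difference of Rpl3 was -2.14 (SE 0.25, interval -2.66 to -1.61, adjusted p = 1.99e-05, edgeR), with 12.9% of genes called, 5.27% as lower and 7.6% as higher. A share of 0.61% of all genes lay below Rpl3 in this comparison. For it the authors' deposited table gives -1.93 with a false discovery rate of 3.88e-06. The Rpl3l strain differences were -0.27 (SE 0.18, interval -0.64 to 0.11, adjusted p = 0.388) in unoperated and -0.17 (SE 0.18, interval -0.55 to 0.20, adjusted p = 0.582) in operated muscle, both from edgeR. In TMM-scaled CPM all 4 unoperated MRL samples had less Rpl3l than every unoperated BL6 sample. How many of all genes separate in this way was not computed. Fitting only those groups gave the same Rpl3l difference of -0.27 with an adjusted p of 0.0423 (edgeR). Scaling by total counts alone gave -0.12 with an adjusted p of 0.557 (edgeR), so the Rpl3l strain difference depends on the scaling and the fit.

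The ratio of Rpl3l to Rpl3 counts within a sample needs no scaling to library size. It was 160.6, 140.6, 194.2 and 177.6 in replicates 1 to 4 of unoperated BL6 muscle and 74.6, 102.1, 92.4 and 31.9 in operated BL6 muscle. All 4 operated samples were below all unoperated ones, and replicate 4 was lowest, with a 95% Clopper-Pearson interval of 29.3 to 34.7 that covers counting error only. In unoperated MRL muscle the ratio was 205.2, 292.0, 300.5 and 386.9, and in operated MRL muscle 404.6, 359.7, 190.2 and 201.6. Of the operated MRL samples 1 was above and 2 were below all unoperated MRL samples. For the highest ratio, 404.6, the counting interval was 305 to 549, because it rests on 48 Rpl3 counts.

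**Figure D2:**
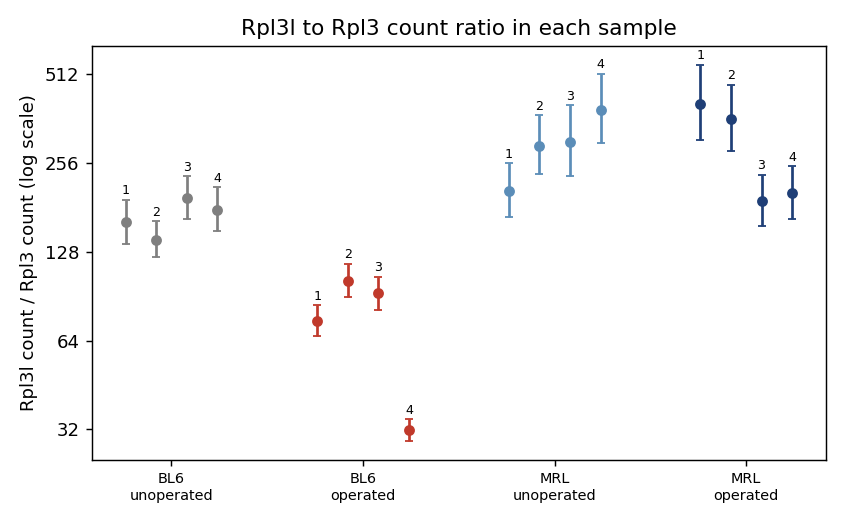
Ratio of Rpl3l to Rpl3 counts in each sample on a log axis, by group. Bars are 95% Clopper-Pearson intervals of the ratio and cover counting error only. Operated BL6 samples lie between 31.9 and 102.1, below every other sample, and MRL samples lie between 190.2 and 404.6.

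The mean ratio was 168 ± 22.98 and 75.2 ± 31.1 in unoperated and operated BL6 muscle, and 296 ± 74.3 and 289 ± 109 in MRL (SD, n = 4 each). Surgery lowered it in BL6 by a factor of 2.42 on the mean log2 ratio (p = 0.0286, two-sided exact permutation test, 0.0476 after Benjamini-Hochberg adjustment over 5 comparisons). In MRL the log2 difference was -0.08 (exact permutation p = 0.8286). MRL had a higher ratio than BL6 by 1.72-fold in unoperated and 3.95-fold in operated muscle, each with an exact permutation p of 0.0286 and an adjusted p of 0.0476. That p is the smallest that 4 samples against 4 can give. The strain difference in the response of the ratio was 1.20 on the log2 scale (exact permutation p = 0.216, adjusted 0.270), so a difference between strains in the response was not shown. Leaving out any 1 unoperated BL6 sample ended the 3 calls of the ratio (adjusted exact permutation p 0.0714 to 0.0952).

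The other proteins of the large subunit give the setting for Rpl3. Of 46 listed genes 36 were tested, and surgery in BL6 raised 33 and lowered 0, with a median log2 difference of 0.94, where the median of all genes was 0.04. In MRL it raised 16 and lowered 0, with a median of 0.39 against 0.01 for all genes. The shares of all genes called higher were 35.1% in BL6 and 22.3% in MRL. With Rpl3 among them, Rpl3 held rank 5 of 37 from the highest in BL6 and rank 20 in MRL. In BL6, Rpl3 was thus one of many genes of its subunit that rose.

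Examples with larger values were Rpl39, which lines the tunnel by which the new protein leaves the ribosome (log2 differences of 1.80 in BL6 and 1.07 in MRL, adjusted p = 2.88e-05 and 0.00318, edgeR), and Rpl13 (1.48 and 0.90, adjusted p = 3.26e-05 and 0.00332). Rpl4 had values of 0.26 and 0.06 and was not called in either strain. Of 21 tested genes of the small subunit, 21 rose in BL6 and 15 in MRL (35.1% and 22.3% of all genes), with medians of 1.047 and 0.501. The interaction was negative on the median, -0.46 in the large-subunit genes, of which edgeR called 2, and -0.55 in the small-subunit genes, whose values ran from -0.79 to -0.11.

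Set against the median log2 level of its 36 subunit partners in the same sample, Rpl3 averaged -2.75 ± 0.16 and -2.04 ± 0.44 in unoperated and operated BL6 muscle and -2.94 ± 0.30 and -3.09 ± 0.49 in MRL (SD, n = 4 each). This relative level was 0.70 higher after surgery in BL6 and 0.15 lower in MRL (a difference of -0.15). When only the 21 partners with at least 50% of windows in no other gene were used, a choice made after seeing the data, the BL6 difference was 0.25. Rpl3 relative to its partners therefore moved by an amount that depends on which partners are counted.

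**Figure D3:**
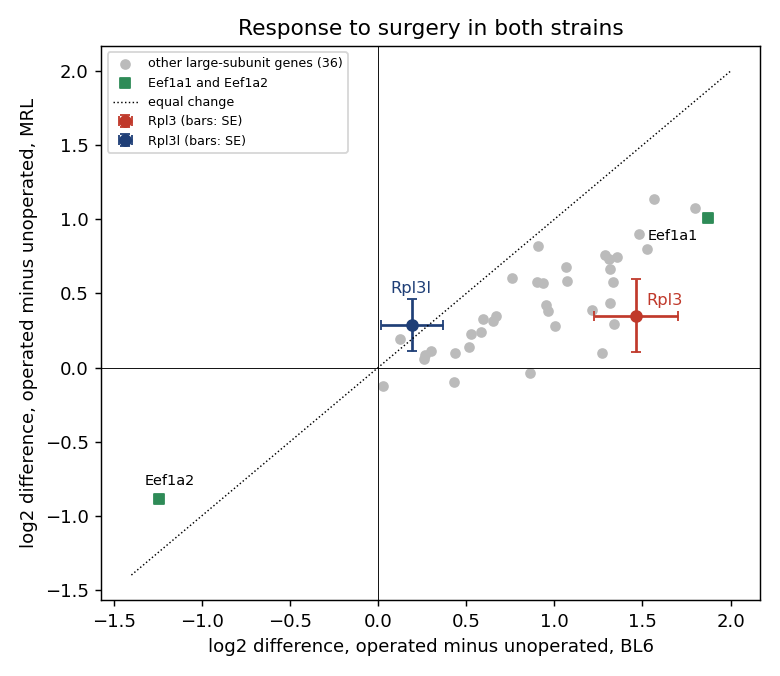
Log2 difference of operated minus unoperated muscle in BL6 (x axis) and MRL (y axis) for Rpl3 and Rpl3l (bars are SE), 36 other large-subunit genes, and Eef1a1 and Eef1a2. The dotted line marks equal change. Rpl3 lies at 1.46 and 0.35 among its subunit partners, Rpl3l at 0.19 and 0.29 near the dotted line, and Eef1a2 is the one gene with negative values in both strains.

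The strain difference of Rpl3 had company in part of the family. Among unoperated samples 7 of the 36 other large-subunit genes were lower in MRL (Rpl14, Rpl26, Rpl29, Rpl30, Rpl34, Rpl35a and Rplp0), with log2 differences from -7.03 to -1.51, and 4 were higher. The median of the 36 was 0.25. In operated muscle 9 were lower and 1 was higher, with a median of -0.19. The shares of all genes were 5.36% lower and 5.02% higher in unoperated muscle, and 5.27% and 7.6% in operated muscle. The largest difference among the 36 was that of Rpl26, with 37.95 CPM in unoperated BL6 and 0.284 CPM in unoperated MRL muscle. The reads were aligned to mm10 per the submitters' processing notes, a genome of C57BL/6J, and bases at which MRL/MpJ differs were not analysed here.

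The share of windows in no other gene was 20.8 to 93.1% in the 7 genes lower in MRL (median 52.1%) and 4.91 to 94.8% in the 25 that were not called (median 50.6%). The range of the called genes lies within that of the others. Rpl3, at 14.4% of windows, had a strain difference smaller in size than each of the 7. Whether shared sequence or strain sequence takes part in the Rpl3 strain difference was not tested.

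**Figure D4:**
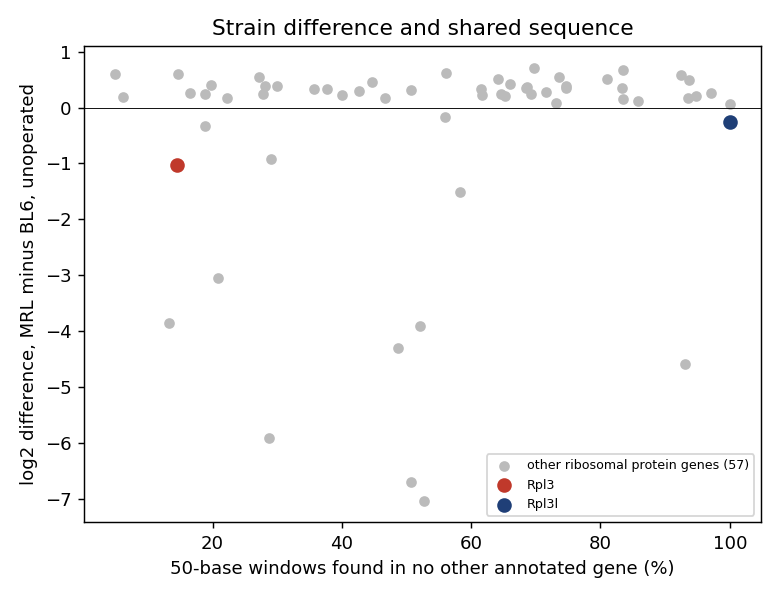
Share of 50-base transcript windows found in no other annotated gene (x axis, percent) against the log2 difference of MRL minus BL6 in unoperated muscle (y axis) for Rpl3, Rpl3l and 57 other ribosomal protein genes. Rpl3 lies at 14.4% and -1.02, Rpl3l at 100% and -0.27, and genes far below 0 occur from low to high shares.

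Rpl3l belongs to the mature fibre, so the 30 muscle fibre genes give its setting, and all 30 were detected in every sample. Surgery lowered 13 and raised 3 of them in BL6 (median log2 difference -0.40) and lowered 8 and raised 1 in MRL (median -0.37). Over all genes 32.8% were called lower and 35.1% higher in BL6, and 22.7% and 22.3% in MRL. The number lowered in MRL is thus near the share of all genes. Skeletal actin Acta1 fell on the log2 scale, by 0.99 (BL6) and 0.76 (MRL; adjusted p = 0.000848 and 0.00999, edgeR). Muscle creatine kinase Ckm fell by 0.63 and 0.60 (adjusted p = 0.0260 and 0.0467), and Casq1, the calcium store protein, by 1.48 and 1.21 (adjusted p = 0.000510 and 0.00557). Tnnt3, fast troponin T, had values of -0.21 and -0.32 and was not called.

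Relative to the median log2 level of these 30 genes in the same sample, Rpl3l averaged -3.135 ± 0.12 in unoperated and -2.66 ± 0.08 in operated BL6 muscle, and -3.08 ± 0.09 and -2.62 ± 0.33 in MRL (SD, n = 4 each). It was 0.47 higher after surgery in BL6 and 0.46 higher in MRL. With the mean of the list in place of its median these differences were 0.72 and 0.60. In BL6 the relative values of the groups did not overlap (-3.28 to -2.99 against -2.72 to -2.55). In MRL they did, since 1 operated sample was at -3.11. The share of all genes whose groups separate on this relative scale was not computed. Between strains this relative level differed by 0.06 in unoperated and 0.04 in operated muscle. The Rpl3l level thus stood closer to the middle of the fibre genes after surgery, and this relative value has no test.

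Another paralog pair of the translation machinery with a muscle form is Eef1a1 and Eef1a2, the elongation factors that bring aminoacyl-tRNA to the ribosome. Eef1a1, the general form, rose from 86.2 to 316 CPM in BL6 (log2 1.87, adjusted p = 2.11e-05, edgeR) and from 131 to 263 CPM in MRL (1.01, adjusted p = 0.00399). Eef1a2, the form of mature muscle and neurons, fell from 1539 to 651 CPM (-1.24, adjusted p = 0.000834) and from 1225 to 661 CPM (-0.89, adjusted p = 0.0139). Both members of this pair were called in both strains, while of the Rpl3 pair only Rpl3 was called, and with surgery only in BL6.

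Of the other ribosomal paralogs, Rpl39l rose by log2 differences of 2.65 in BL6 and 1.53 in MRL, from a level of 0.494 CPM in unoperated BL6 muscle (adjusted p = 0.000265 and 0.0149, edgeR). Rps4l rose by 2.50 and 1.65 (adjusted p = 0.000160 and 0.00787). Rpl22l1, with 0.27 and -0.01, and Rpl7l1, with 0.07 and 0.05, were not called. The list of 18 paralogs also holds Eef1a1 and Eef1a2. Of its 15 tested genes 12 rose in BL6 and 7 in MRL (35.1% and 22.3% of all genes), and the 1 gene that fell in each strain was Eef1a2.

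Genes that act on the Rpl3 protein were not called higher. Grwd1, a chaperone that delivers Rpl3 to the assembling subunit, had log2 differences of -0.25 in BL6 and -0.34 in MRL (adjusted p = 0.217 and 0.131, edgeR). Mettl18, which methylates a histidine of Rpl3, fell by 0.66 and 0.53 (adjusted p = 0.00310 and 0.0204). Of 38 tested ribosome assembly genes, surgery raised 8 and lowered 13 in BL6 and raised 5 and lowered 7 in MRL. Of all genes 32.8% were called lower in BL6 and 22.7% in MRL, so the falls are near the background. The shares of all genes called higher were 35.1% and 22.3%, and the rises lay below these. The nucleolar protein Npm1 rose by 0.77 and 0.73 (adjusted p = 0.000615 and 0.00310), and the assembly factor Ppan by 0.79 and 0.55 (adjusted p = 0.000161 and 0.00597).

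Regulators of ribosomal RNA synthesis and of ribosomal protein translation were also listed, the latter because they act on the messages of ribosomal proteins. Of 22 genes, surgery raised 2 and lowered 9 in BL6, where 35.1% of all genes were called higher and 32.8% lower. In MRL it raised 1 and lowered 7, where the shares of all genes were 22.3% and 22.7%. Larp1, which binds the start of ribosomal protein messages, fell on the log2 scale by 1.48 (BL6) and 0.84 (MRL; adjusted p = 1.43e-05 and 0.00206, edgeR). Mtor, the kinase upstream of it, fell by 0.64 and 0.35 (adjusted p = 0.000607 and 0.0420).

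Markers of other cell types moved with surgery as well. In BL6, surgery raised 11 of 15 macrophage, 9 of 14 fibroblast, 11 of 11 adipocyte, 8 of 10 endothelial and 8 of 8 Schwann cell markers and lowered 0 of each. In MRL it raised 1, 1, 10, 9 and 5 of them and lowered 0. Over all genes 35.1% were called higher and 32.8% lower in BL6, and 22.3% and 22.7% in MRL. The macrophage and fibroblast rises in MRL were below that share. Of 5 tested satellite cell markers 1 rose and 2 fell in BL6, and 1 rose and 1 fell in MRL. The 5 red cell genes ran from -0.87 to 0.08 in BL6 and from 0.83 to 1.41 in MRL on the log2 scale, and none passed the edgeR test (adjusted p of 0.118 or more). None of the markers tested was at 0 in any sample.

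The summed adipocyte markers ranged from 438 to 483 CPM in unoperated and 1841 to 3595 CPM in operated BL6 muscle, and from 811 to 1064 CPM and 1963 to 3761 CPM in MRL. Macrophage sums were 58.3 to 213.5 CPM and 146.2 to 958.6 CPM in BL6 and 119.7 to 652.1 CPM and 214.8 to 415.6 CPM in MRL. Fibroblast sums were 1495 to 3353 CPM and 2302 to 10800 CPM in BL6, and 2815 to 4459 CPM and 3254 to 6314 CPM in MRL. In unoperated muscle the adipocyte sum was higher in every MRL sample than in every BL6 sample. Car3, with 90.99 CPM in BL6 and 441.2 CPM in MRL, was the 1 of its 11 markers that was called. The log2 strain differences of the 11 ran from -0.62 to 2.28, the highest that of Car3, with a median of 0.51. The sum thus does not stand for each marker. The part of these cells in the Rpl3 rise was not tested. Of 17 tested denervation genes 6 rose and 6 fell in BL6, which is near the share of all genes called (35.1% higher and 32.8% lower), and 8 rose and 4 fell in MRL (22.3% and 22.7% of all genes). Among them Myog, a regulator that denervated fibres turn on, rose by 2.05 and 1.85 (adjusted p = 9.26e-05 and 0.00120, edgeR). Ankrd1 (2.76 and 4.08), Cdkn1a (2.61 and 1.54), Runx1 (1.79 and 1.19), Ncam1 (1.41 and 1.09) and Chrnb1 (1.07 and 0.89) were also called higher in both strains. Chrna1, a subunit of the acetylcholine receptor, fell by 0.47 and 0.37 (adjusted p = 0.00754 and 0.0426). Musk, Myod1 and Fbxo32 also fell in both strains, by 1.31 and 0.92, 0.76 and 0.57, and 1.35 and 1.27.

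Total counts per sample ranged from 24323862 to 43552964, at which 3 counts equal 0.0689 to 0.123 CPM. Mitochondrially encoded genes held 12.2 to 14.2% of counts in unoperated and 17.4 to 23.8% in operated BL6 muscle. In MRL they held 10.97 to 11.6% in unoperated muscle and 20.1 to 24.9% in operated replicates 1 to 3, but 11.8% in operated replicate 4, which was also lowest in Rpl3l. In BL6 the totals of operated samples were all below those of unoperated samples, so depth and surgery cannot be told apart there for the raw counts. No pair of samples within a group agreed within counting noise, pairs across groups were not compared, and the labels name no batch.

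Patterns most like that of each member were sought by Pearson r of log2 CPM over the 16 samples among 9656 genes. The samples share strain and surgery, so a high r is a description of that layout. Rpl3 was most like Capg (0.96), Cherp (0.94), Mill2 (0.94), Pop4 (0.93) and Brd9 (0.93), and most unlike AI987944, Smc6 and Glrx (-0.96 each). Capg, an actin-capping protein, had the same order of group means as Rpl3, with 10.56 and 27.65 CPM in unoperated and operated BL6 and 2.52 and 4.69 CPM in MRL muscle.

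Rpl3l was most like Mrpl16 (0.96), Lrrfip2 (0.94), mt-Nd2 (0.94), Thap4 (0.93) and mt-Nd1 (0.93), and most unlike Wls and Prrx1 (-0.92 each) and Nsd2 (-0.91). Mrpl16 is a protein of the mitochondrial ribosome, and mt-Nd1 and mt-Nd2 are subunits of respiratory complex I. Prrx1 is a transcription factor of connective tissue cells. Rpl3 and Rpl3l themselves had an r of 0.34 over the 16 samples.

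The genomic neighbours differed between the members. Of 4 tested genes within 100 kb of Rpl3, surgery raised 2 and lowered 1 in BL6 and raised 1 and lowered 1 in MRL. The shares of all genes were 35.1% higher and 32.8% lower in BL6, and 22.3% and 22.7% in MRL. With 4 genes the counts cannot be told apart from these shares. Pdgfb, a growth factor of vessels, rose by 1.19 and 0.46 on the log2 scale (adjusted p = 4.27e-05 and 0.0337, edgeR), and Syngr1, which overlaps Rpl3, fell by 0.48 and 0.47 (adjusted p = 0.0265 and 0.0439). Their log2 strain differences in unoperated muscle ran from 0.07 to 0.50 and were not called. In operated muscle Pdgfb was lower in MRL, with a log2 difference of -0.65 (adjusted p = 0.0156, edgeR).

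Of 9 tested genes within 100 kb of Rpl3l, 5 were lower and 1 was higher in unoperated MRL than in unoperated BL6 muscle, and 4 were lower in operated MRL muscle. The shares of all genes were 5.36% lower and 5.02% higher in unoperated muscle, and 5.27% lower in operated muscle. Rps2, a small-subunit gene 5891 bases away, had log2 strain differences of -5.91 in unoperated and -6.65 in operated muscle (adjusted p = 2.17e-13 and 6.56e-14, edgeR). Msrb1, 499 bases away, had -1.60 and -1.66 (adjusted p = 4.46e-07 and 3.10e-07). Rpl3l lies between them and had -0.27 and -0.17, with neither called.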

How the data were processed

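The deposited table holds whole-number counts per gene and sample, not normalized, as its values show. Per the submitters' processing notes the authors used FastQC, STAR, edgeR and mm10, with no versions named; the counting program, strand use and gene filter are not given in the sources used here. A second deposited table gives the authors' log2 fold change, p-value and false discovery rate per gene and comparison; only values named as such come from it.

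From the counts, edgeR 4.0.16 in R 4.3.3 was run with TMM factors, filterByExpr (minimum count 10) and a quasi-likelihood fit with 1 mean per group over all 16 samples. It tested 11709 of 11710 genes, and p-values were adjusted by Benjamini-Hochberg over them, with a call at an adjusted p under 0.05. CPM use TMM-scaled libraries, and log2 CPM a prior count of 2. The ratio was tested as log2 of the Rpl3l over the Rpl3 count, 0.5 added to each, by two-sided exact permutation in SciPy 1.17.1, strain labels being permuted within each surgical state for the interaction. Sequences were compared with BLAST 2.17.0 and by exact windows on GENCODE M21 transcripts. The edgeR fit was tested on simulated counts, for surgery in BL6 only.

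Groups and replicate numbers follow the labels. The members and 14 gene lists (274 genes, 239 tested) were chosen with earlier results of these data known. Genes named are the members, the first 3 tested of a list and its 3 largest mean surgery changes, paralogs, Rpl3 handling factors and neighbours within 100 kb. The 5 highest and 3 lowest r with each member among genes of at least 5 CPM are named too. Car3, Chrnb1, Ncam1, Runx1, Musk, Myod1, Fbxo32 and the large-subunit genes called lower in MRL were named after their values were seen. Alternatives were other size factors, total counts, no filter, limma voom 3.58.1, DESeq2 1.42.0, a replicate block, only the groups compared, other pseudocounts and lengths, and leaving out each sample.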

Additional observations from a re-analysis of the deposited data

How the results depend on the processing

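Directions and calls of Rpl3 with surgery in BL6 and between operated strains held under all 24 alternatives each (log2 1.26 to 1.64 and -2.34 to -1.93). Of the values recomputed, 570 kept their direction and side of the threshold or stayed within their spread, 35 moved further, 17 lost and 4 gained a call, and 4 reversed. With total counts alone, which shift the median of all genes to 0.18 for surgery in BL6 and 0.15 between unoperated strains, Rpl3l was called with surgery in BL6 (0.28, edgeR adjusted p = 0.0447) and MRL (0.33, 0.0414), Rpl3 between unoperated strains was not (-0.88, 0.0940), and 14 interaction genes were called. That scaling called 4443 genes higher and 2932 lower with surgery in BL6 (4107 and 3843 in the fit reported), 742 and 313 between unoperated strains (588 and 628) and 994 and 383 between operated strains (890 and 617). Fitting only the groups compared called Rpl3l between unoperated strains (-0.27, 0.0423). DESeq2 called 250 interaction genes where edgeR called 29.

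The mean correlation of deviations of same-numbered samples ran from -0.14 to 0.16 over pairs of groups, against -0.05 to 0.05 for samples of other numbers. It was 0.16 against -0.05 between unoperated strains, 0.16 against -0.04 between operated strains, and -0.14 against 0.05 with surgery in BL6. Such correlations cannot show whether the numbers pair the samples. With the replicate block 2 interaction genes were called, and the ratio differences of -1.28 (surgery in BL6), 0.78 and 1.98 (MRL against BL6, unoperated and operated) had an adjusted exact permutation p of 0.156, a design that cannot reach the threshold.

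Leaving out 1 sample at a time gave 1 to 69 interaction genes and 3490 to 6145 genes with surgery in MRL (3490 without operated MRL replicate 3). Rpl3 ran from -1.24 to -0.91 between unoperated strains, and Rpl3l from 0.0757 to 0.35 with surgery in BL6 and from -0.0599 to 0.21 in the interaction, reversed to -0.0599 without operated BL6 replicate 4. The ratio ran from -1.47 to -0.91 with surgery in BL6, 0.64 to 0.95 and 1.61 to 2.17 between unoperated and operated strains, and -0.27 to 0.0939 with surgery in MRL, where it reversed to 0.06 without unoperated MRL replicate 4, 0.0939 without operated MRL replicate 3 and 0.066 without operated MRL replicate 4. Without any 1 unoperated BL6 sample the 3 ratio calls were lost (adjusted exact permutation p 0.0714 to 0.0952), and without any 1 other sample they held (0.0476). Between operated strains, where those samples do not enter, the difference stayed at 1.98 and the loss came with the adjustment over 5 comparisons. The causes of the other changes were not tested. Depth limits Rpl3, whose 48 to 552 counts leave wide counting intervals for the ratio.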
